A study of Bos taurus with 22 samples.

Results

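Type I interferon stimulated genes were examined in jejunal mucosa of Holstein steers through 9 genes chosen by symbol, ISG15, USP18, MX1, MX2, RSAD2, IFI6, IFI44, IFIH1 and IRF7. Each symbol matched 1 identifier among the 27570 genes of the count table, and all 9 genes passed the filter on low counts in every comparison. The rule used the symbol alone and no threshold on a measured value, but the 9 genes were chosen with earlier results of these data known.

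Type I interferons are secreted by cells that sense viral nucleic acid, and they act through a receptor of 2 chains, IFNAR1 and IFNAR2, with the kinases JAK1 and TYK2. The signal reaches the nucleus through transcription factors such as STAT2 and IRF9, which switch on a common set of target genes. In intestinal mucosa, interferon lambda and its receptor chain IFNLR1 drive much the same targets in epithelial cells. Many targets also have a resting level without infection, so their messenger RNA is read as a gauge of interferon tone rather than of infection alone.

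RNA sequencing values of 22 steers were used, each an animal of its own. The treatments were a 2 by 2 arrangement of protein infusion and glucagon-like peptide 2 (GLP-2), an intestinal growth hormone. All steers received raw corn starch into the abomasum at 3.94 g per kg body weight per day for 7 d, so no group was free of infusion. Control steers (n = 5) received abomasal water and subcutaneous bovine serum albumin (BSA) vehicle, GLP-2 steers (n = 5) water and GLP-2 at 100 μg per kg per day, casein steers (n = 6) sodium caseinate at 1.30 g per kg per day and vehicle, and casein + GLP-2 steers (n = 6) both active treatments. The steers were about a year of age, and the replicate number is the body weight block within which treatments were assigned. No GLP-2 steer of replicate 2 and no control steer of replicate 6 was among those used. The samples were scrapings of mucosa with mixed cell types, so fewer cells of a type and less RNA per cell cannot be told apart.

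Libraries held between 8809666 and 28447810 counts, with a median of 12028560.5, and no steer had fewer than 107 counts for any of the 9 genes. The 12 markers of villus enterocytes were found in every steer, led by the fatty acid carrier FABP2 with a median of 11224 CPM (counts scaled to library size with the trimmed mean of M-values). Red blood cell genes summed to at most 3.10 CPM. Some steers stood apart. Control replicate 5 and casein replicate 1 had the lowest mean enterocyte marker level, 6.54 and 7.05 log2 CPM against 8.08 to 11.6 in the other 20 steers, and control replicates 1, 3 and 5 with casein replicate 3 had follicle B cell marker levels of 6.20 to 6.97 log2 CPM against at most 3.76 in the others.

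All 9 genes were expressed in every steer. On the per-length scale of the authors' FPKM values, the ubiquitin-like protein ISG15 had the highest level, 119 ± 80.9 FPKM (SD, n = 22), followed by IFI6 at 52.3 ± 26.2, a mitochondrial protein that restrains cell death, and by IRF7 at 34.6 ± 7.50, the transcription factor that amplifies interferon production. IFIH1, the cytosolic RNA sensor also called MDA5, stood at 26.4 ± 8.90 FPKM. USP18 at 21.3 ± 11.7, which removes ISG15 from its targets and damps receptor signalling, MX1 at 20.9 ± 13.6 and IFI44 at 20.9 ± 10.1 were within their spread of one another. RSAD2, the antiviral enzyme viperin, reached 12.1 ± 9.34 FPKM, and MX2 was lowest at 6.17 ± 4.00 FPKM. MX1 and MX2 are related GTPases that block incoming viruses.

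On the ARS-UCD1.2 build given with the counts, MX2 (ENSBTAG00000008471, chr1:141621165-141658223) and MX1 (ENSBTAG00000030913, chr1:141677687-141706496) lie on the plus strand of chromosome 1 with 19463 bases between them, and reads from stretches alike in both could have been assigned to either. ISG15 (ENSBTAG00000014707, chr16:51464069-51465107), RSAD2 (ENSBTAG00000016061, chr11:90038994-90056291) and IFI44 (ENSBTAG00000034349, chr3:66029139-66043630) are on the minus strand. USP18 (ENSBTAG00000016661, chr5:75988786-76019180), IFI6 (ENSBTAG00000007554, chr2:125662055-125665793), IFIH1 (ENSBTAG00000008142, chr2:34111730-34166890) and IRF7 (ENSBTAG00000047680, chr29:50695300-50698405) are on the plus strand. All are annotated as protein coding. IRF7 overlaps PHRF1 on the opposite strand, and since the strand setting of the counting is not given in the sources used here, its counts are uncertain to that extent.

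**Figure D1:**
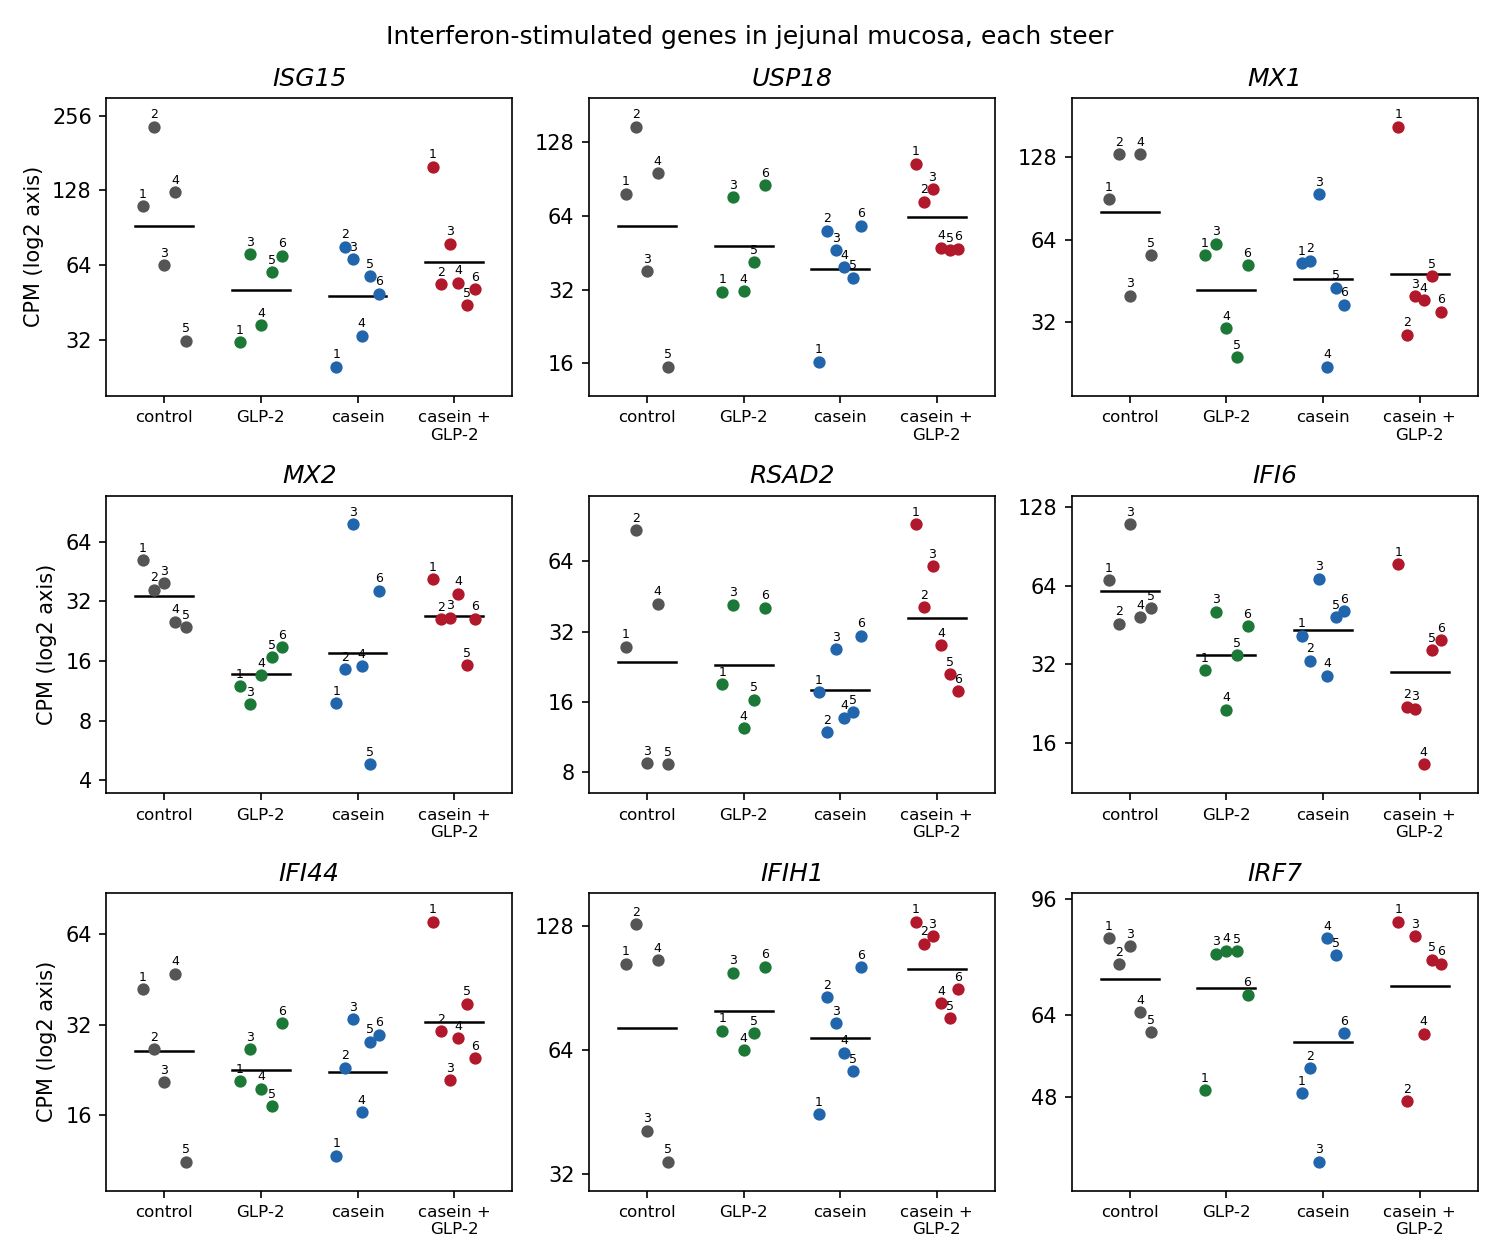
CPM (vertical axis, log2 scale) of the 9 genes in each of 22 steers by treatment. Points are steers with their replicate number, and bars are geometric means. Steers of one treatment spread widely, and only for MX2 do the control and GLP-2 points not overlap.

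The first question was how GLP-2 acted on these genes in steers without casein. None of the 9 genes changed by edgeR's quasi-likelihood test at a Benjamini-Hochberg adjusted p of 0.05, and none of the 15086 genes tested did (0% called). By DESeq2 none of the 9 passed either, in this or any other comparison, where it called 2.04% of genes here, 22.4% in pooled GLP-2 against BSA, 14.9% in casein + GLP-2 against control, 6.55% in casein + GLP-2 against casein and at most 0.0663% in the others. All 9 estimates were nevertheless below 0, as were 47.4% of all genes, with a median log2 fold change of -0.50 against 0.04 over all genes. At an unadjusted p of 0.05, 4 of the 9, namely ISG15, MX1, MX2 and IFI6, were lower and none higher, against 8.35% of all genes lower. The 9 genes are read from the same steers and are not independent of one another.

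ISG15 stood at 111, 231, 64.0, 126 and 31.9 CPM in control replicates 1 to 5 and at 31.4, 71.1, 36.8, 60.1 and 69.9 CPM in GLP-2 replicates 1, 3, 4, 5 and 6. Control replicates 1, 2 and 4 were above every GLP-2 steer and the lowest control steer was among the lowest GLP-2 steers, so the groups overlapped. The log2 fold change was -1.06 ± 0.44 (SE), with an adjusted p of 0.288 by edgeR. USP18, which acts on ISG15 conjugates, ranged from 15.5 to 148 CPM in control and from 31.4 to 85.4 CPM in GLP-2 steers, a log2 fold change of -0.50 ± 0.45 with an adjusted p of 0.617 by edgeR.

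MX2 read 51.6, 36.7, 39.5, 25.3 and 23.8 CPM in control replicates 1 to 5. It read 11.97, 9.70, 13.6, 16.7 and 18.8 CPM in GLP-2 replicates 1, 3, 4, 5 and 6. Every GLP-2 steer was below every control steer, which held for no other of the 9 genes here, and 1.75% of all genes separated these 2 groups. The log2 fold change was -1.33 ± 0.50, with an adjusted p of 0.264 by edgeR. With the mean follicle B cell marker level as a covariate the MX2 estimate was -0.73. In that fit IFI6 was also nearer 0, at -0.31. ISG15 (-1.50), USP18 (-1.12), RSAD2 (-1.02), IFIH1 (-0.49) and IRF7 (-0.33) were further below 0 than without the covariate. MX1, the neighbour of MX2, read 89.7, 131, 40.0, 131 and 56.2 CPM in control and 56.3, 61.9, 30.4, 23.9 and 51.6 CPM in GLP-2 steers. The groups overlapped through control replicates 3 and 5, and the log2 fold change of MX1 was -0.999 ± 0.46, with an adjusted p of 0.335 by edgeR.

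IFI6 read 67.3, 45.8, 110.0, 48.4 and 52.7 CPM in control and 30.5, 50.9, 21.5, 34.7 and 44.8 CPM in GLP-2 steers. Only GLP-2 replicate 3 reached into the control range, and the log2 fold change was -0.83 ± 0.37, with an adjusted p of 0.323 by edgeR. For RSAD2 the estimate was -0.42 ± 0.55 and for IFI44 -0.34 ± 0.37. The sensor IFIH1 and the factor IRF7 had estimates near 0, -0.03 with a 95% interval of -0.65 to 0.60 and -0.04 with an interval of -0.47 to 0.40.

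The same question in steers given casein went mostly the other way in sign. In casein + GLP-2 against casein steers, 8 of 9 estimates were above 0, with a median of 0.51 against 48.1% of all genes above 0. Without casein + GLP-2 replicate 1, 6 of 9 were above 0 with a median of 0.19, and the MX1 estimate was -0.41. None of the 9 genes passed an adjusted p of 0.05 by edgeR, as none of all genes did (0% called), and at an unadjusted p of 0.05 1 of 9 was higher, against 9.88% of all genes. That gene was RSAD2, at 17.5, 11.8, 26.8, 13.6, 14.4 and 30.7 CPM in casein replicates 1 to 6 and 92.5, 40.6, 61.0, 27.9, 20.96 and 17.8 CPM in casein + GLP-2 replicates 1 to 6. Casein + GLP-2 replicates 1, 2 and 3 were above all casein steers and the others within their range. Its log2 fold change was 1.18 ± 0.51, with an adjusted p of 0.174 by edgeR and 0.0951 by DESeq2.

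Of the others, USP18 ranged from 16.3 to 58.4 CPM (median 42.9) in casein and from 46.4 to 105 CPM (median 60.4) in casein + GLP-2 steers, an estimate of 0.67 ± 0.41. IFIH1 ranged from 44.8 to 102 CPM (median 68.7) and from 76.4 to 131 CPM (median 103), an estimate of 0.53 ± 0.28. IFI44 had an estimate of 0.58 ± 0.33, ISG15 0.51 ± 0.40, IRF7 0.26 ± 0.19, MX1 0.23 ± 0.42 and MX2 0.10 ± 0.45. IFI6 alone had an estimate below 0, -0.37 ± 0.34, with 29.0 to 68.2 CPM in casein and 13.3 to 77.3 CPM in casein + GLP-2 steers.

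The interaction term asked whether the GLP-2 response differed between casein and no casein. All 9 interaction estimates were above 0, with a median difference in log2 fold change of 1.17 against -0.03 over all genes, of which 47.3% were above 0. None of the 9 passed an adjusted p of 0.05 by edgeR, nor did any gene (0% called). The adjusted p was 0.996 for each of the 9. At an unadjusted p of 0.05, 3 of 9 were higher, ISG15 at 1.58 ± 0.59, MX2 at 1.43 ± 0.67 and RSAD2 at 1.60 ± 0.75, against 1.68% of all genes higher. The 95% interval of ISG15 ran from 0.36 to 2.80, and that of IRF7, the smallest estimate at 0.30, from -0.30 to 0.89. With the block as a term the count at an unadjusted p of 0.05 was 1 instead of 3.

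**Figure D2:**
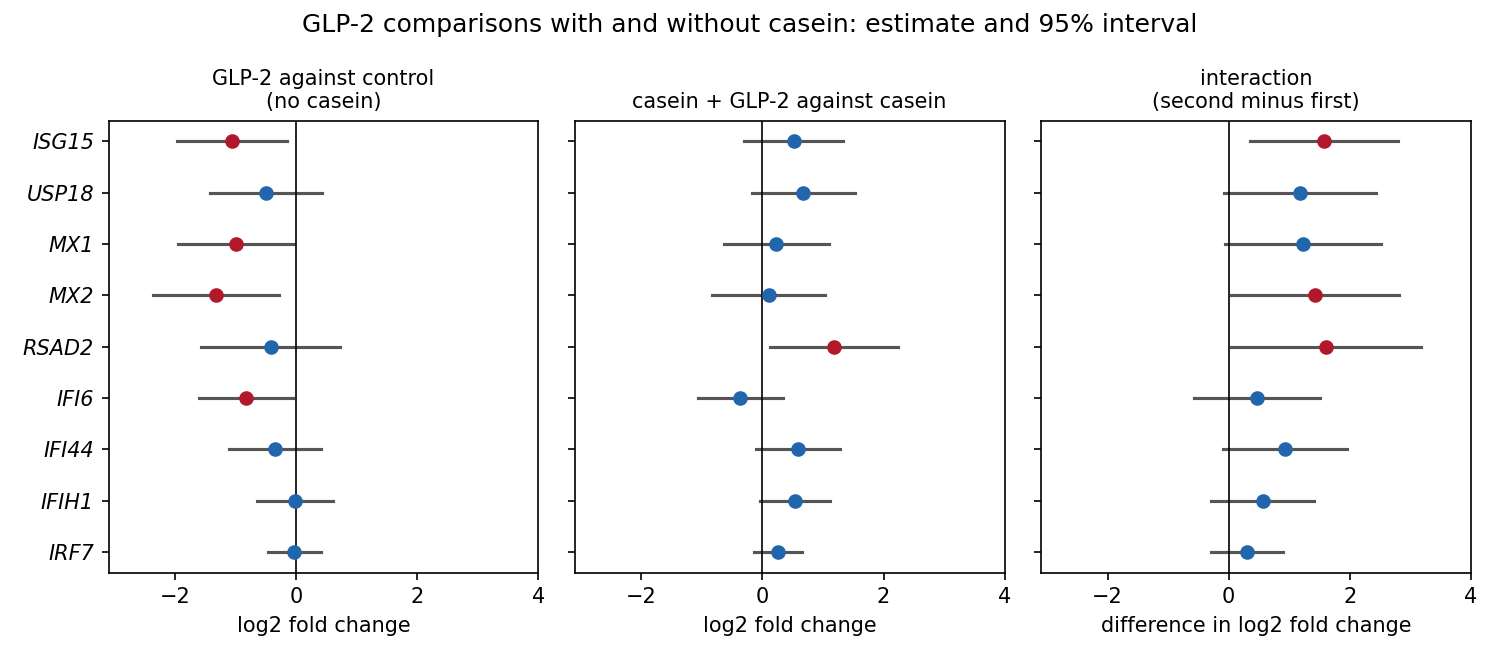
Log2 fold changes with 95% intervals (horizontal axis) of the 9 genes for GLP-2 against control, for casein + GLP-2 against casein, and for their difference. Red points have an unadjusted p of 0.05 or less by edgeR and blue points do not. Estimates lie below 0 on the left for all 9 genes, above 0 in the middle for 8, and above 0 on the right for all 9.

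One steer weighed on this pattern. Casein + GLP-2 replicate 1 had the highest level of MX1, IFI44, RSAD2, IFIH1 and IRF7 among the 22 steers, with MX1 at 165 CPM and 28.8 to 47.0 CPM in the other 5 steers of its treatment. Without that steer the median interaction estimate was 0.63, still with all 9 above 0, and 1 gene had an unadjusted p of 0.05 or less. Without control replicate 2, the steer with the highest ISG15 and USP18, the median was 0.98 and 1 gene had an unadjusted p of 0.05 or less. Without control replicate 5, a steer low in enterocyte markers, the median was 1.41 and 7 genes reached it.

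Casein without GLP-2 gave estimates below 0 for all 9 genes against control (48.6% of all genes), with a median of -0.52. These estimates use the same control steers as GLP-2 against control. None passed an adjusted p of 0.05 by edgeR (0% of genes called), and ISG15 alone had an unadjusted p of 0.05 or less, against 2.76% of all genes lower. ISG15 ranged from 25.0 to 76.1 CPM (median 53.5) in casein steers, and its log2 fold change was -1.13 ± 0.41 with an adjusted p of 0.82 by edgeR. MX2 spanned 4.82 to 78.5 CPM in casein steers, with casein replicates 3 and 6 at 78.5 and 36.3 CPM and the other 4 at or below 15.0 CPM, and its estimate was -0.42 ± 0.47. Casein replicate 3 was also the casein steer with a high follicle B cell marker level, 6.95 log2 CPM. Casein replicate 6 had 1.58 log2 CPM, below casein replicates 1, 2 and 5 at 3.66, 2.71 and 2.46 log2 CPM. Over the 22 steers MX2 and these markers had a Pearson r of 0.38 and a Spearman rho of 0.13.

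In casein + GLP-2 against control, with 5.12% of genes called by edgeR, none of the 9 passed. IFI6 came closest, the 1 gene with an unadjusted p of 0.05 or less (16% of all genes lower), with a log2 fold change of -0.89 ± 0.35 and an adjusted p of 0.118. Of the 9 estimates, 6 were below 0 (49.6% of all genes), including ISG15 at -0.61 ± 0.41, and the median was -0.17. In casein + GLP-2 against GLP-2 (0% called), 8 of 9 estimates were above 0 (48.6% of all genes), and MX2, the 1 gene with an unadjusted p of 0.05 or less (0.848% of all genes higher), had the highest, 1.01 ± 0.48, with an adjusted p of 0.995 by edgeR. In GLP-2 against casein (0% called), 5 estimates were above 0 and 4 below, none with an unadjusted p of 0.05 or less (7.34% of all genes). No 2 treatments next to each other in the order of mean level differed for any of the 9 genes by edgeR. Control had the highest arithmetic mean CPM for ISG15, USP18, MX1, MX2, IFI6 and IRF7, and casein + GLP-2 for RSAD2, IFI44 and IFIH1. On the log2 scale the order was the same at the top except for USP18, whose mean log2 CPM was 5.99 in casein + GLP-2 and 5.87 in control.

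Pooled over casein, GLP-2 against BSA (11 steers each) called 13.5% of 13928 genes by edgeR and none of the 9. IFI6 had the lowest adjusted p, 0.119, with a log2 fold change of -0.58 ± 0.26, and DESeq2 gave it 0.0805. It was the 1 gene with an unadjusted p of 0.05 or less, against 18.1% of all genes lower. Estimates ran from there to 0.46 ± 0.40 for RSAD2, with 5 above and 4 below 0. The follicle B cell markers also differed between treatments. Their summed level was 38.0 to 73.6 CPM in GLP-2 and 40.7 to 99.0 CPM in casein + GLP-2 steers. It was 55.7 to 2402 CPM in casein and 78.7 to 1972 CPM in control steers. A fit with both can therefore hardly tell this marker level and GLP-2 apart. With the follicle score as a covariate the IFI6 estimate was -0.11, and that of MX2 was 0.10 instead of -0.48. In GLP-2 against control the same covariate moved ISG15, USP18, RSAD2, IFIH1 and IRF7 further below 0. The part of these cells in any of these estimates was not tested further. Casein against water (12 and 10 steers) called 0% of 14096 genes and none of the 9, nor had any of them an unadjusted p of 0.05 or less (3.36% of all genes), with estimates from -0.40 for ISG15 to 0.17 for IFI44.

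The spread between steers of one treatment was above that of most genes for RSAD2, with an SD of 0.96 on the log2 scale, MX2 (0.83), USP18 (0.81), MX1 (0.75) and ISG15 (0.75), where the median over all genes was 0.55. IFI6 and IFI44 (both 0.62) were slightly above that median and IFIH1 (0.52) below it. IRF7 was steady, with an SD of 0.34, and 19.8% of genes had a smaller one. From the lowest to the highest steer MX2 differed 16.3-fold, RSAD2 10.7-fold, USP18 9.55-fold, ISG15 9.23-fold, IFI6 8.27-fold, MX1 7.49-fold, IFI44 6.31-fold, IFIH1 3.82-fold and IRF7 2.31-fold.

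Steers tended to be high or low for many of these genes at once. In casein + GLP-2 replicate 1 and control replicates 1 and 2 all 9 genes were above their mean over the 22 steers, and in control replicate 4 8 of 9 were. Casein replicate 1 and control replicate 5 had the lowest mean over the 9 standardized genes. Over the 22 steers the median Pearson correlation of the 36 gene pairs was 0.39. It was 0.91 for USP18 with IFIH1, 0.87 for ISG15 with USP18 and 0.86 for RSAD2 with IFIH1, whereas IRF7 and IFI6 had median correlations of 0.14 and 0.19 with the other genes. The genes of a pair are read from the same libraries, and the steers differ in treatment and tissue make-up. No value for gene pairs outside the 9 is given here for comparison.

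**Figure D3:**
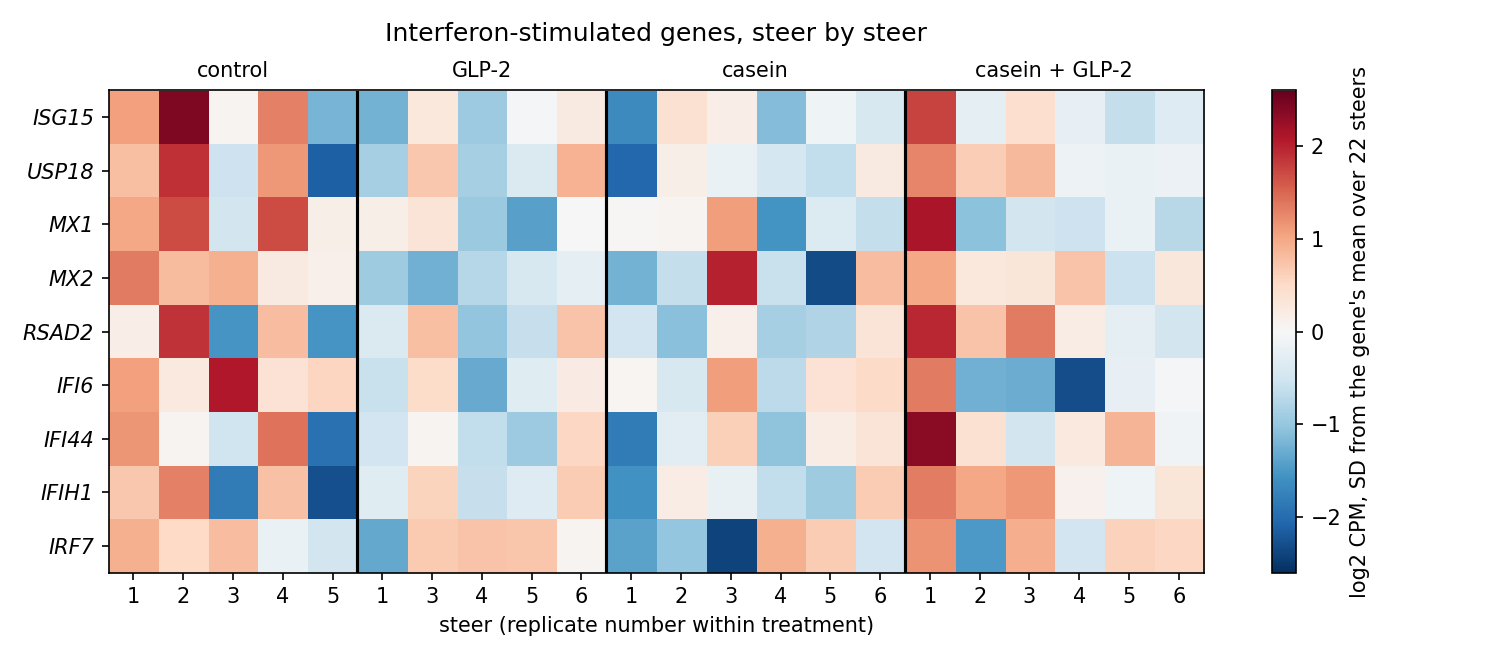
Level of each of the 9 genes (rows) in each steer (columns, by treatment and replicate number), as SD from the gene's mean log2 CPM over 22 steers. Casein + GLP-2 replicate 1 and control replicates 1 and 2 are above the mean in all 9 rows, and IRF7 and IFI6 depart most from the other rows.

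The genes differed in the cell markers they followed from steer to steer. IFIH1, USP18 and RSAD2 varied with the villus enterocyte markers, with Pearson correlations of 0.83, 0.79 and 0.72 over 22 steers, and against the smooth muscle markers, at -0.86, -0.81 and -0.80. IFI44 (0.58) and ISG15 (0.49) were intermediate with the enterocyte markers, and MX1 (0.06) and MX2 (-0.01) were near 0. With treatment means removed the value of ISG15 was 0.74, level with RSAD2 at 0.73. These are descriptions over steers of 4 treatments whose tissue make-up differed. Smooth muscle markers summed to 29.1 to 1375 CPM in control and 92.7 to 777 CPM in GLP-2 steers. They summed to 57.3 to 754 CPM in casein and 28.8 to 259 CPM in casein + GLP-2 steers. IFI6 followed the follicle B cell markers (0.59), plasma cell markers (0.45) and markers of plasmacytoid dendritic cells (0.50), cells known for high interferon output. With treatment means removed these IFI6 values were 0.35, 0.26 and 0.36. The dendritic cell markers went the other way with IFIH1 (-0.79), USP18 (-0.67), RSAD2 (-0.63) and ISG15 (-0.40). With them IFI44 was at -0.29 and MX2 at -0.21, and MX1 (0.05) and IRF7 (-0.03) were near 0. Plasma cell markers gave similar values with IFIH1 (-0.74), USP18 (-0.68), RSAD2 (-0.64) and ISG15 (-0.35). T cell markers had positive values with USP18 (0.63), IFIH1 (0.57), ISG15 (0.56) and MX2 (0.54), and -0.01 (IFI6) to 0.39 (IFI44) with the rest. With treatment means removed the T cell values of those first named were 0.62, 0.67, 0.46 and 0.41. The 6 markers of those dendritic cells summed to 222 to 839 CPM in control and 277 to 334 CPM in GLP-2 steers, but their most specific member, LILRA4, had a median of 2.59 CPM, and IRF8, which B cells also express, one of 178 CPM.

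**Figure D4:**
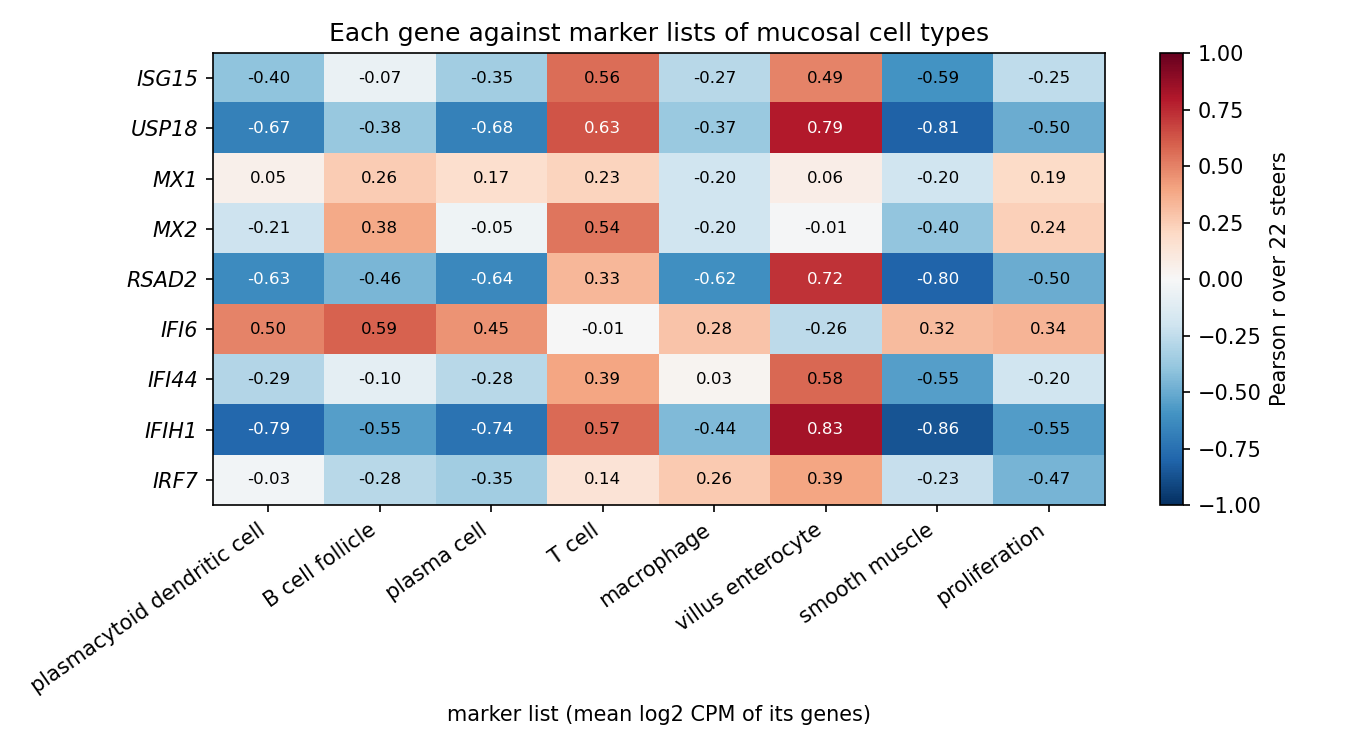
Pearson correlation over 22 steers (color and printed value) of log2 CPM of each of the 9 genes (rows) with the mean log2 CPM of marker lists of cell types (columns). IFIH1, USP18 and RSAD2 have the highest values with villus enterocyte markers, and MX1 and MX2 are near 0 there.

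Enterocyte markers also differed between treatments, with summed levels of 26880 to 104783 CPM in casein + GLP-2, 18237 to 69672 CPM in GLP-2, 4229 to 35161 CPM in casein and 2056 to 66291 CPM in control steers. With the mean enterocyte marker level as a covariate, all 9 estimates of GLP-2 against control were below 0, with a median of -0.89. Of the 9, 7 had an unadjusted p of 0.05 or less, where 9% of all genes did in either direction. USP18 was then at -1.09 ± 0.25 and ISG15 at -1.49 ± 0.33, each with an adjusted p of 0.248 by edgeR. In the same fit casein + GLP-2 against casein had 3 estimates above 0 and 6 below, with a median of -0.07 and RSAD2 at -0.06 ± 0.46. The median interaction estimate was 0.74 with all 9 above 0. With this covariate all 9 estimates of pooled GLP-2 against BSA were below 0, with a median of -0.56. Of these, 3 had an unadjusted p of 0.05 or less, where 4.44% of all genes did in either direction. The marker level is itself measured in these libraries, and its part in the differences was not tested beyond this fit. Without control replicate 5 and casein replicate 1, the steers lowest in these markers, the median of GLP-2 against control was -0.78 with 5 genes at an unadjusted p of 0.05, and none of the 9 passed an adjusted p of 0.05 by edgeR.

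The named type I and lambda interferons, ligands that could drive these genes, were scarcely read. Interferon genes were found by symbol, so loci without such a symbol were not examined. Of 16 interferon identifiers, 11 had no count in any of the 22 steers, among them all 6 identifiers named IFNB3 and the lambda interferon IFNL3, which allows up to 0.00956 CPM over all steers (3 counts, counting error only). IFNAC, an alpha interferon, had 17 counts in 5 steers, IFN-TAU 12 counts in 6 steers, IFNE 5 counts in 2 steers and IFNK 130 counts in 13 steers. IFNG, the type II interferon of T cells and natural killer cells, was read in every steer with 1155 counts in all, at 3.69 ± 2.31 CPM (SD, n = 22). By treatment IFNG was at 4.38 ± 3.55 CPM in control and 1.90 ± 0.55 CPM in GLP-2 steers. It was at 4.06 ± 2.44 CPM in casein and 4.23 ± 1.39 CPM in casein + GLP-2 steers, and no test of IFNG is given here. Poly-A selected RNA of scraped mucosa at this depth does not show whether rare cells made more.

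A wider interferon pathway list of 79 symbols, of which 69 were matched to 70 identifiers, all tested, gave few changes. In GLP-2 against BSA 4 of 70 passed by edgeR, 3 higher and 1 lower, against 13.5% of all genes, and the median log2 fold change was 0.17 against 0.01 over all genes. With the block as a term the count was 0. TICAM1, the adaptor of the RNA sensor TLR3, rose by 0.85 ± 0.26 on the log2 scale (adjusted p 0.0368), the kinase TBK1, which activates interferon regulatory factors, rose by 0.48 ± 0.16 (0.0470), and the interferon-inducible PARP14 rose by 0.63 ± 0.21 (0.0472). SOCS1, the feedback inhibitor of JAK kinases, fell by 0.74 on the log2 scale (adjusted p 0.0387). ZC3HAV1 at 0.79 ± 0.27 (adjusted p 0.0534) and TRIM25 at 0.57 ± 0.22 (0.0741), both partners of RNA sensing, did not pass.

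With the enterocyte score as a covariate the estimates of TBK1, PARP14 and TICAM1 were 0.09, 0.10 and 0.34, while that of SOCS1 was -0.65, close to its value without the covariate. None of the 70 passed in that fit. Among receptors, IFNLR1 had an estimate of 0.98 ± 0.38 (adjusted p 0.0779 by edgeR, 0.0428 by DESeq2), IFNAR1 0.47 ± 0.21 (0.126 by edgeR), IL10RB 0.31 ± 0.17 and IFNAR2 0.17 ± 0.14. Of the kinases, JAK1 was at -0.12 ± 0.16, TYK2 at 0.16 ± 0.11 and IKBKE at 0.22 ± 0.10. Of the transcription factors, STAT2 was at 0.40 ± 0.19, IRF9 at -0.02 ± 0.12, IRF1 at 0.30 ± 0.18, IRF3 at -0.24 ± 0.10 and IRF5 at -0.18 ± 0.20, all with adjusted p above 0.05 by edgeR.

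SOCS1, a pathway gene chosen for this after its values were seen, set control steers apart. It ranged from 11.7 to 20.4 CPM (median 14.4) in control, 4.73 to 8.67 CPM (median 5.97) in GLP-2, 5.08 to 11.5 CPM (median 7.79) in casein and 5.16 to 11.03 CPM (median 7.13) in casein + GLP-2 steers. Each control steer was above every steer of the other 3 treatments, most narrowly for casein, at 11.7 against 11.5 CPM. Of all genes, 1.75% separated control from GLP-2 in either direction, 0.305% from casein and 2.27% from casein + GLP-2. The share that separated control from all 3 at once is not given here. The SOCS1 estimate was -1.35 ± 0.27 in GLP-2 against control (adjusted p 0.101 by edgeR, 0.000386 by DESeq2). It was -0.96 ± 0.25 for casein against control (0.706 by edgeR) and -1.06 ± 0.25 for casein + GLP-2 against control (0.036 by edgeR, 0.111 with the block as a term). These 3 comparisons share the control steers. The interaction estimate was 1.25 ± 0.36, with an adjusted p of 0.996 by edgeR.

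**Figure D5:**
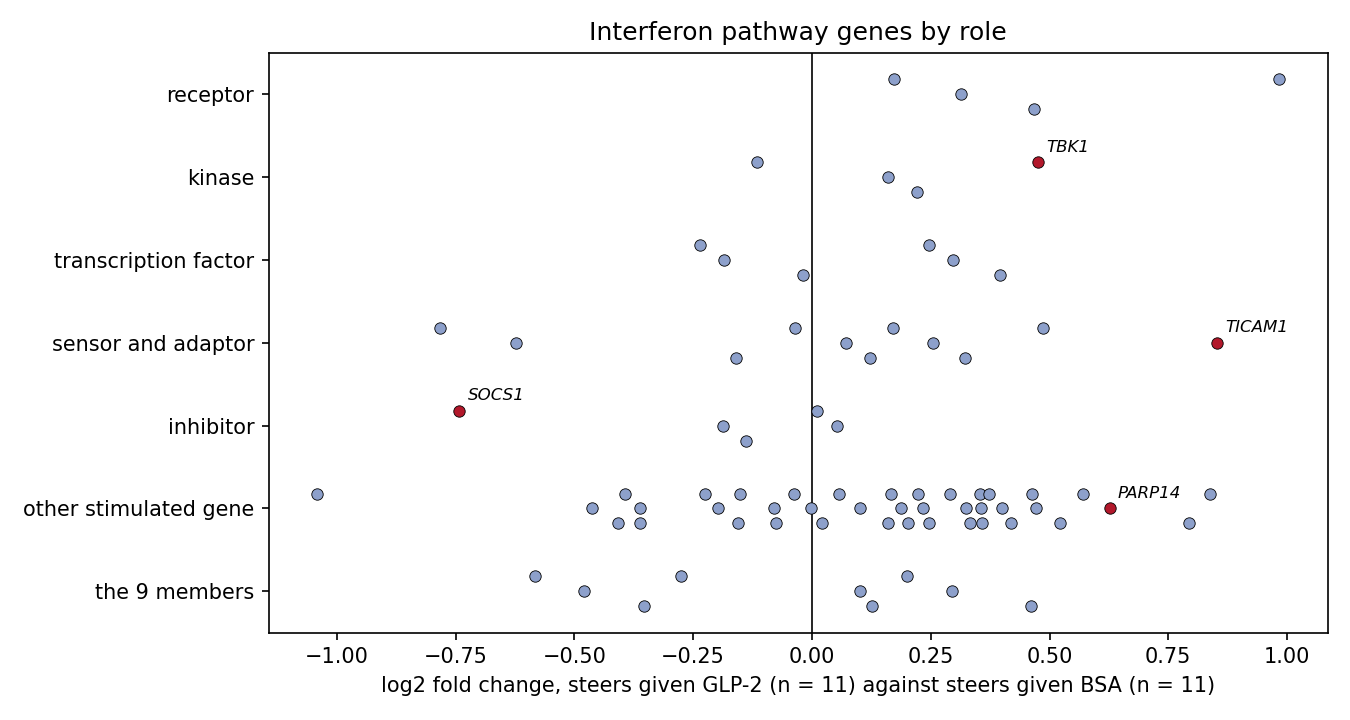
Log2 fold changes of GLP-2 against BSA (horizontal axis, 11 steers each) for 70 interferon pathway genes grouped by role and, in the bottom row, the 9 genes. Red named points passed an adjusted p of 0.05 by edgeR, and blue points did not. TICAM1, TBK1 and PARP14 lie to the right of 0, SOCS1 to the left, and none of the 9 genes is red.

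For the list in the single comparisons, none of which is independent of the others, the signs were as follows. In GLP-2 against control 42 of 70 estimates were below 0 (47.4% of all genes) and 5 had an unadjusted p of 0.05 or less, all lower, against 8.35% of all genes lower. In casein + GLP-2 against casein 53 of 70 were above 0 (48.1% of all genes) and 19 had an unadjusted p of 0.05 or less, all higher, against 9.88% of all genes higher and 24.1% in either direction. The interaction estimate was above 0 for 61 of 70 (47.3% of all genes), with a median of 0.44. None of the 70 passed an adjusted p of 0.05 by edgeR in these 3 comparisons. In casein against water none passed, and the 5 sensors, adaptors, inhibitors or targets with the lowest p were TLR3 at 0.48 ± 0.21, SOCS1 at -0.50 ± 0.26, TLR9 at -0.51 ± 0.33, DDX58 at 0.34 ± 0.23 and TLR7 at 0.44 ± 0.32, each with an adjusted p of 0.994 by edgeR.

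The genes outside the 9 that tracked them most closely from steer to steer were found by the correlation of each of 15077 other genes with the mean standardized level of the 9 over 22 steers. The highest value was that of EPSTI1, itself an interferon target (Pearson r 0.88, Spearman rho 0.88, and 0.83 without casein + GLP-2 replicate 1 and control replicate 2). HERC6, an interferon-inducible ubiquitin ligase, was also in the first 10 (r 0.84). The other 8 were ATP6V1C1 (0.85), CAP1 (0.84), GMPS (0.84), EZR (0.83), ABHD4 (0.83), B3GNT2 (0.83), NDFIP1 (0.82) and SBDS (0.82), of which EZR codes for ezrin, a protein of the enterocyte brush border. With treatment means removed these 10 had values of 0.79 to 0.87. Over all genes the median was -0.02. Of the 70 pathway genes, 9 were among the 100 highest of the 15077 genes. Beside EPSTI1 and HERC6 these were IFI44L (0.81), OAS1Y (0.79), IFI27 (0.78), IFIT5 (0.78), ZNFX1 (0.75), DHX58 (0.75) and HERC5 (0.74).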

How the data were processed

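The values used were of jejunal mucosa from 22 steers. Per the labels, libraries were strand-specific and poly-A selected, and the authors' processing notes name HISAT2 2.0.5, StringTie 1.3.3b, featureCounts 1.5.0-p3 and DESeq2 1.20 with the ARS-UCD1.2 build. The deposited counts are whole reads per gene, and the deposited FPKM values divide by gene length and by library sizes proportional to median-of-ratios size factors (their ratio varied by 0.64% over steers).

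Counts were tested with edgeR 4.0.16 (quasi-likelihood, TMM, filterByExpr with a minimum count of 10) under R 4.3.3. The 2 comparisons of a single factor (GLP-2 or BSA, casein or water) used pooled groups, and 7 further comparisons used 1 model of the 4 treatments. P-values were adjusted by Benjamini-Hochberg over all genes tested, and a gene was called at an adjusted p of 0.05. Log2 CPM used a prior count of 2. DESeq2 1.42.0 and limma 3.58.1, on log2(FPKM + 1) and log2(FPKM + 0.1), were alternatives, with other scalings, filters, score covariates, the block, and each steer left out. Cell marker scores are the mean log2 CPM of a list. Scripts were tested on simulated data.

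The replicate number is the body weight block of the design. Same-block steers in different treatments correlated little in their deviations from treatment means (mean r 0.0331 over 30 pairs, lowest -0.464). Beside the 9 genes, the text names every interferon gene with a count, the receptors, kinases and transcription factors of the pathway list, its 5 other genes with the smallest p in each pooled comparison, and the 10 genes most like the 9, except that 1 gene of the pathway list is not reported here. SOCS1 in the other comparisons and the further pathway genes among the 100 most alike were chosen after their values were seen. The 9 genes and all lists were chosen with earlier results of these data known. No sequence of the 9 genes is shown, since none was in the files used here. No library was identical to another, and no row lacked a gene.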

Additional observations from a re-analysis of the deposited data

Results flagged for a closer look

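MX1 in casein + GLP-2 replicate 1 lay apart from the other 5 steers of its treatment, at 7.37 log2 CPM against 4.85 to 5.56 (165 CPM, 2347 counts). It was the only such value among 36 sets of steers examined, 9 genes by 4 treatments, and about 1 in 20 sets would give one by chance. The same steer had the highest IFI44, RSAD2, IFIH1 and IRF7, and an enterocyte marker level of 11.6 log2 CPM, the highest of the 22 steers. Without it the log2 fold change of MX1 in GLP-2 against BSA was -0.75 instead of -0.35, and its interaction estimate was 0.60 instead of 1.23.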

How the results depend on the processing

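Of 332 counts of the 9 genes called under alternatives, 1 was above 0: without casein + GLP-2 replicate 1, 1 gene, IFI6 (log2 fold change -0.81, adjusted p 0.0474 by edgeR), passed in GLP-2 against BSA, so that leaving out steers gave 0 to 1 there. Of 2826 refits of the 81 estimates, 102 changed sign with neither value past the threshold and none reversed a called value. All 9 interaction estimates stayed above 0 in each of 35 fits, and all 9 estimates of GLP-2 against control below 0 in 26 of 36, with at least 7 below 0 in the rest. Leaving out 1 steer, the median interaction estimate ran from 0.63 to 1.41 with 1 to 7 genes at an unadjusted p of 0.05, and that of GLP-2 against control from -0.77 to -0.36 with 1 to 4.

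The pathway counts moved more. In GLP-2 against BSA, where 4 of 70 passed, the count was 1 without a filter or with the other factor as a covariate, 7 by DESeq2, 10 at a threshold of 0.1, and 0 at 0.01, with the replicate block, with either score as a covariate, or without the 2 steers lowest in enterocyte markers, an alternative chosen after seeing the data. Leaving out 1 steer gave 0 to 14: 14 without control replicate 2, 0 without control replicate 1, 3 or 5, GLP-2 replicate 3 or 6, or casein + GLP-2 replicate 2 or 3, 1 without casein replicate 1, 2 or 3 or casein + GLP-2 replicate 1, and 2 without casein replicate 4 or 5 or casein + GLP-2 replicate 4. In casein + GLP-2 against control, where 1 passed, it was 2 by DESeq2 and at 0.1, and 0 at 0.01, with the replicate block, by limma with either pseudocount, with either score, without those 2 steers, or with only those 2 treatments, and 0 to 12 without 1 steer (12 without control replicate 2, 2 without control replicate 4 or casein + GLP-2 replicate 5, 0 without control replicate 1, 3 or 5 or casein + GLP-2 replicate 1, 2, 3 or 4). In GLP-2 against control, where none passed, 2 did by DESeq2 and 0 to 2 without 1 steer (2 without control replicate 2, 1 without casein replicate 3), and in casein + GLP-2 against casein 1 did by DESeq2. The cause was not tested. The replicate block changed no other call. Of the 22 steers, 6 correlated best with a steer of their own block. With 5 or 6 steers a treatment and these spreads, the estimates carry wide intervals, and values inside a printed interval remain compatible with these data.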
